A study of Mus musculus with 20 samples.

Results

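The matricellular and adhesive matrix glycoproteins described here are 10 genes, Sparc, Sparcl1, Spp1, Thbs1, Thbs2, Thbs3, Thbs4, Postn, Tnc and Fn1, taken by gene symbol from a table of 46603 mouse genes. All 10 passed the filter on low counts and were among the 17236 genes tested. RNA was profiled in populations of 1000 cells sorted from the mammary tissue of FVB/N females, virgin and 6 to 8 weeks old, all without treatment in the labels. The 4 populations were the CD200+CD200R1+ MRU, then the remaining MRU, then the CD200+ non-MRU and the CD200R1+ non-MRU. MRU, mammary repopulating units, are cells in the sort gate of medium CD24 and high CD49f, which is enriched for basal epithelial cells. The CD200+CD200R1+ MRU carried both CD200, a membrane glycoprotein, and its receptor CD200R1. The remaining MRU lay inside the same gate but were not CD200+CD200R1+. The labels can be read as excluding either protein or only their combination. The column headers of the deposited counts name this population none, which reads as neither protein. The CD200+ non-MRU lay outside the gate and lacked CD200R1, and the CD200R1+ non-MRU lay outside it and lacked CD200. Each population came from the same 5 individual mice, numbered 2 to 6, in 20 libraries. Per the labels, about 10% of the cells in the CD200R1+ non-MRU library of mouse 4 came from mouse 3. The libraries of mice 3 and 4 therefore share a source in that population. Leaving out the one with added cells changed no call of the 10 genes, and the sign only of the uncalled Thbs4 between the non-MRU populations (log2 0.08, against -0.02 with it).

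Matricellular proteins are secreted into the extracellular matrix, where they bind collagens, growth factors and cell surface receptors but do not themselves form the load-bearing fibres. SPARC and the SPARC-like protein bind collagen and calcium, thrombospondins bind CD36, CD47 and integrins, periostin and tenascin-C tune the assembly and stiffness of matrix, and osteopontin, encoded by Spp1, binds integrins and CD44. Fibronectin, encoded by Fn1, is an adhesive glycoprotein that cells assemble into fibrils through integrins. In the mammary gland such proteins are known from the stroma around the ducts, from the basement membrane zone and, for osteopontin, from the milk-producing epithelium.

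Library totals lay between 10853587 and 13862963 counts, so that 3 counts in a single library were worth 0.216 to 0.276 CPM. CPM here are counts scaled to a common library total after the totals were scaled by TMM factors, which averaged 0.809 in the CD200R1+ non-MRU and 1.05 to 1.08 in the other populations. The labels call all samples epithelial cells. The markers in the CD200R1+ non-MRU went against that label, with the keratins Krt14 at 0.744 ± 0.594 CPM and Krt8 at 5.93 ± 7.92 CPM and the fibroblast genes Pdgfra at 500 ± 101 and Col1a1 at 8050 ± 1550 CPM (SD, n = 5 libraries). The basal markers Krt5, Trp63 and Oxtr were also under 1 CPM in that population. Cd200 was higher on average in the remaining MRU, at 198 ± 18.9 CPM, than in the CD200+CD200R1+ MRU, at 102 ± 19 CPM. At the RNA level this runs against the header name none of the remaining MRU. It averaged 199 ± 34.2 CPM in the CD200+ non-MRU and 3.54 ± 1.67 CPM in the CD200R1+ non-MRU, which is the direction of their labels. Cd200r1 was low throughout, at 2.76 ± 1.33 CPM in the CD200+CD200R1+ MRU and 1.62 ± 1.58 CPM in the remaining MRU. It ran against the labels outside the gate, at 4.05 ± 2.44 CPM in the CD200+ non-MRU, sorted as lacking the protein, and 0.864 ± 0.773 CPM in the CD200R1+ non-MRU. An exchange of labels was not tested.

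Promoter sequences are shown for Spp1, which was highest in the CD200+ non-MRU, for Postn, Tnc, Thbs2 and Thbs3, which were highest in the CD200R1+ non-MRU, and for the scarce Thbs4, so that the letters upstream can be set beside those levels. These are the 6 of 10 genes with a RefSeq start within 30 bases of the annotated gene start, and Sparc, Sparcl1, Thbs1 and Fn1 are named only. Each is the 250 bases before the RefSeq transcript start on build GRCm38.p6, written 5′ to 3′ on the strand of the gene. Capitals mark matches, on either strand, to TATAAA, to CCAAT, to the RUNX core ACCACA, to the GC box GGGCGG or to the AP-1 element TGANTCA. The Spp1 window is chr5:104434861-104435110 on the plus strand, the Postn window chr3:54360857-54361106 on the plus strand, the Tnc window chr4:64047016-64047265 on the minus strand, the Thbs2 window chr17:14694263-14694512 on the minus strand, the Thbs3 window chr3:89214930-89215179 on the plus strand and the Thbs4 window chr13:92794819-92795068 on the minus strand.
Spp1: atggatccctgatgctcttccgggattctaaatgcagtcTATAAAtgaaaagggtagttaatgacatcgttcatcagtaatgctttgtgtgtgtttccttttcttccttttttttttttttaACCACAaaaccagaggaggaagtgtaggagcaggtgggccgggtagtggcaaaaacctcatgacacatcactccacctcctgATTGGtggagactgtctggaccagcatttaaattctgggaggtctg
Postn: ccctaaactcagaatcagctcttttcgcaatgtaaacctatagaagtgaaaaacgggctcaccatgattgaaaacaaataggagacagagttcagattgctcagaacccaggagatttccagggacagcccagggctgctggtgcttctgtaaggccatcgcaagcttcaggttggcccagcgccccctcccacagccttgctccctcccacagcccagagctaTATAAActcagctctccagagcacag
Tnc: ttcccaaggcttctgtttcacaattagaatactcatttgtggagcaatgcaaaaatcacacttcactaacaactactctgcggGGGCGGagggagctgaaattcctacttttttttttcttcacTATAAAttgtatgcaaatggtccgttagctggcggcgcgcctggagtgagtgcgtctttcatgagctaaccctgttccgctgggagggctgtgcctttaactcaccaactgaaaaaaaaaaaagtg
Thbs2: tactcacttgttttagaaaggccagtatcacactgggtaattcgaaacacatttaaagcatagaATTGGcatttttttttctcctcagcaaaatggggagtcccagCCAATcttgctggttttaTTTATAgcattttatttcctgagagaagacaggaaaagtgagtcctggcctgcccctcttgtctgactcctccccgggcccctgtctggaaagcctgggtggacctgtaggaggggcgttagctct
Thbs3: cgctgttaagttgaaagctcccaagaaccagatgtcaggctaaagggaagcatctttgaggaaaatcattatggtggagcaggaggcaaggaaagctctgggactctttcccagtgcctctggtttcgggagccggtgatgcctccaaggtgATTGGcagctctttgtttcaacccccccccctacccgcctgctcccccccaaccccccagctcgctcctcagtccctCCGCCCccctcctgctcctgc
Thbs4: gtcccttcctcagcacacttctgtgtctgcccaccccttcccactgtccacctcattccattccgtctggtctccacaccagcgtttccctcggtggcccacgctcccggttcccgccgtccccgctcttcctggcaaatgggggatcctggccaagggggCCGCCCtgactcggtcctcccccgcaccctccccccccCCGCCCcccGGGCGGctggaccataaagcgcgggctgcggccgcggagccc
A TATAAA was found in 4 of the 6 windows, those of Spp1, Postn, Tnc and Thbs2, and in neither Thbs3 nor Thbs4. The motif is present in 12.4% of 32851 RefSeq mouse promoter windows of the same length. The match began 26 bases before the start in Postn, 126 bases before it in both Tnc and Thbs2, where the Thbs2 match was on the other strand, and 211 bases before it in Spp1. A RUNX core, present in 14% of all windows, lay 128 bases before the Spp1 start. CCAAT, present in 33.8% of windows, lay 46 bases before the start of Spp1 and at 186 and 144 bases before that of Thbs2, with another at 98 bases in Thbs3. A GC box, present in 32.7% of windows, lay 167 bases before the Tnc start, 21 bases before that of Thbs3 and 89, 51 and 42 bases before that of Thbs4. None of the 6 windows held the AP-1 letters, which are in 6.75% of all windows. The matches describe letters in these windows and no binding was measured.

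Together the 10 genes took 0.89 ± 0.154% of all counts in the CD200+CD200R1+ MRU and 1.03 ± 0.0344% in the remaining MRU, against 1.2 ± 0.151% in the CD200+ non-MRU and as much as 3.38 ± 0.586% in the CD200R1+ non-MRU (SD, n = 5). The largest contributor differed between populations. To compare genes with each other, CPM were divided by exon length (CPM per kb), and each gene was expressed as its share of the sum over the 10. Sparc made up 41.3 ± 3.18% of that sum in the CD200+CD200R1+ MRU and 35.5 ± 7.43% in the remaining MRU, against 62 ± 2.73% in the CD200R1+ non-MRU. Spp1 made up 34 ± 4.9% in the CD200+CD200R1+ MRU and 40.2 ± 14.7% in the remaining MRU. Spp1 alone accounted for 83.3 ± 4.93% of the sum in the CD200+ non-MRU, against 0.356 ± 0.491% in the CD200R1+ non-MRU, and Sparc for 11.3 ± 3.04% in the CD200+ non-MRU. Postn held 1.31 ± 0.983% in the CD200+ non-MRU, against 20.5 ± 3.49% in the CD200R1+ non-MRU, where it was the second largest share. Fn1 held 1.21 ± 0.528% in the CD200+ non-MRU, against 5.62 ± 2.03% in the CD200R1+ non-MRU.

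**Figure D1:**
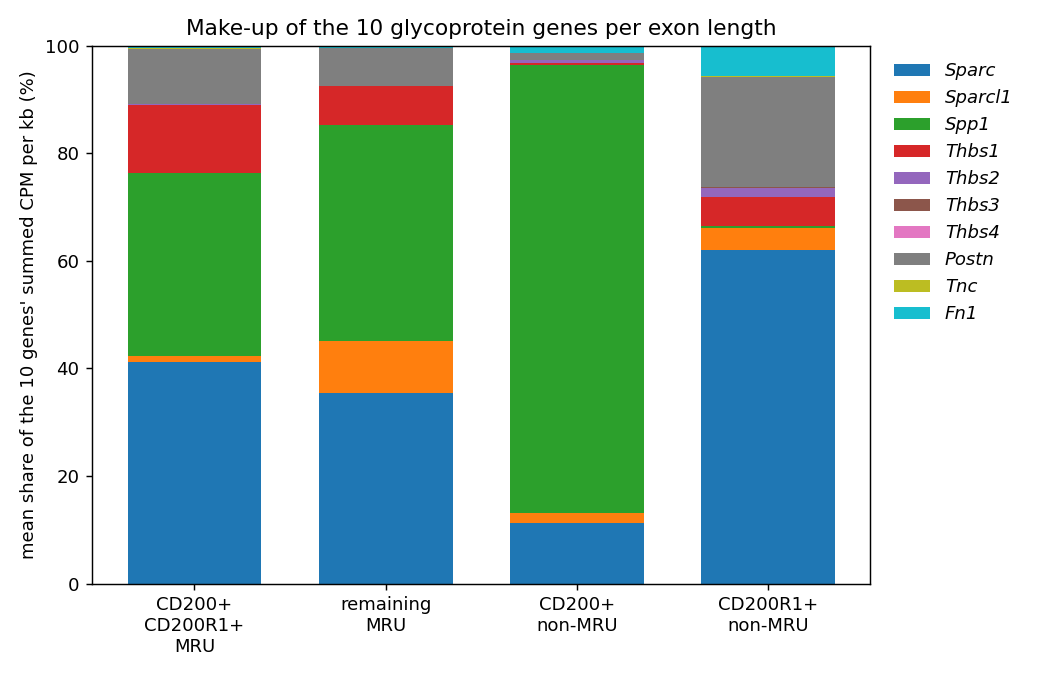
Mean share of each of the 10 genes in their summed CPM per kb of exon, in percent, stacked for each sorted population (n = 5 libraries). Spp1 fills 83.3% of the bar for CD200+ non-MRU and Sparc 62% of that for CD200R1+ non-MRU.

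The per-length levels placed several of these genes among the most abundant transcripts of the populations. Among 17176 tested genes with an exon length, Sparc ranked 51 in the CD200+CD200R1+ MRU and 38 in the remaining MRU, against 87 in the CD200+ non-MRU and rank 11 in the CD200R1+ non-MRU. Spp1 ranked 5 in the CD200+ non-MRU at 4280 ± 798 CPM per kb, and 2110 in the CD200R1+ non-MRU at 27.5 ± 37.4 CPM per kb. Postn ranked 42 in the CD200R1+ non-MRU, where Fn1 ranked 157 and Thbs1 ranked 176. Thbs4 ranked 13773 to 16543 over the 4 populations.

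Sparc (ENSMUSG00000018593, chromosome 11, 55394500 to 55423183 on the minus strand of GRCm38, as are all coordinates given) encodes SPARC, also called osteonectin. It stood at 3990, 3230, 2810, 3300 and 3120 CPM in the CD200+CD200R1+ MRU of mice 2 to 6 and at 4320, 3910, 3550, 3900 and 3660 CPM in the remaining MRU. It stood at 1780, 2220, 2790, 2480 and 1570 CPM in the CD200+ non-MRU and at 13500, 18300, 18800, 21200 and 19700 CPM in the CD200R1+ non-MRU. All 5 libraries of CD200R1+ non-MRU were above every other library, the CD200+ non-MRU were lowest, and both MRU populations lay between and overlapped each other. Sparc was 5.57-fold lower in the CD200+CD200R1+ MRU than in the CD200R1+ non-MRU (log2 -2.48, SE 0.16, adjusted p = 5e-11, edgeR) and 1.52-fold higher than in the CD200+ non-MRU (log2 0.60, SE 0.15, adjusted p = 0.0029). Between the MRU populations it did not pass (log2 -0.23, 95% interval -0.53 to 0.07, adjusted p = 0.45), although it was lower in the CD200+CD200R1+ MRU of all 5 mice. Of the 10 genes it had the smallest spread between the replicates of the remaining MRU, with a coefficient of variation of 7.69%. In these bulk libraries, fewer cells of a type and less RNA per cell cannot be told apart.

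Sparcl1 (ENSMUSG00000029309, chromosome 5, 104079111 to 104113733, minus strand) encodes the SPARC-like protein hevin, known from vessel walls and from the nervous system. It stood at 87.7, 96, 26.1, 48 and 50.2 CPM in the CD200+CD200R1+ MRU of mice 2 to 6, against 769, 778, 955, 920 and 692 CPM in the remaining MRU. The other populations had 231, 338, 336, 186 and 244 CPM in the CD200+ non-MRU and 1040, 1320, 312, 896 and 1050 CPM in the CD200R1+ non-MRU. Every CD200+CD200R1+ MRU library was below every library of the other populations, and of the 10 genes Sparcl1 was the only one whose libraries separated the MRU populations. It was 13.4-fold lower in the CD200+CD200R1+ MRU than in the remaining MRU (log2 -3.74, SE 0.35, adjusted p = 2.1e-07), and 4.33-fold and 15-fold lower there than in the CD200+ non-MRU and the CD200R1+ non-MRU (adjusted p = 2e-05 and 7.4e-09). Between the remaining MRU and the CD200R1+ non-MRU it did not pass (log2 -0.17, 95% interval -0.79 to 0.45, adjusted p = 0.7), and the sign was the opposite when libraries were scaled by their totals alone (log2 0.23). The CD200R1+ non-MRU library of mouse 4, the one with added cells, was the lowest of its population.

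Endothelial and pericyte markers, and those of the adipocyte list apart from Lep, moved with Sparcl1 within the MRU gate. The 10 endothelial markers summed to 64.5 to 239 CPM in the CD200+CD200R1+ MRU and 1940 to 2730 CPM in the remaining MRU. The 8 pericyte markers summed to 42.2 to 95 CPM against 534 to 771 CPM in the remaining MRU, and the 8 adipocyte markers to 168 to 381 CPM against 4090 to 5900 CPM in the remaining MRU, with the adipocyte genes Plin1 and Lep under 1 CPM in both. Most of the adipocyte sum was the fatty acid carrier Fabp4. It averaged 249 CPM in the CD200+CD200R1+ MRU and 4770 CPM in the remaining MRU, of mean sums of 269 and 4930 CPM. In the same order, Pparg averaged 4.99 and 69.6 CPM, Car3 9.14 and 74.8 CPM and Adipoq 0.54 and 4.4 CPM. Lep alone of that list was not lower in the CD200+CD200R1+ MRU, at 0.921 and 0.826 CPM. The part of these cell types in the Sparcl1 result was not tested. In the CD200R1+ non-MRU, where Sparcl1 averaged 926 ± 376 CPM, the endothelial markers summed to 172 to 244 CPM, with Emcn under 1 CPM, and the pericyte markers to 205 to 398 CPM, with Higd1b under 1 CPM. Plvap alone averaged 111 CPM of the mean endothelial sum of 209 CPM there, beside Flt1 at 1.61 CPM. Pdgfrb averaged 181 CPM of the mean pericyte sum of 267 CPM, beside Rgs5 at 6.29 CPM. The per-length ratio of Sparc to Sparcl1 had a median of 48.3 (26.1 to 83.3) in the CD200+CD200R1+ MRU and 3.9 (2.88 to 4.36) in the remaining MRU, against 5.96 (5.01 to 10.3) in the CD200+ non-MRU and 14.5 (10.1 to 46.7) in the CD200R1+ non-MRU.

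**Figure D2:**
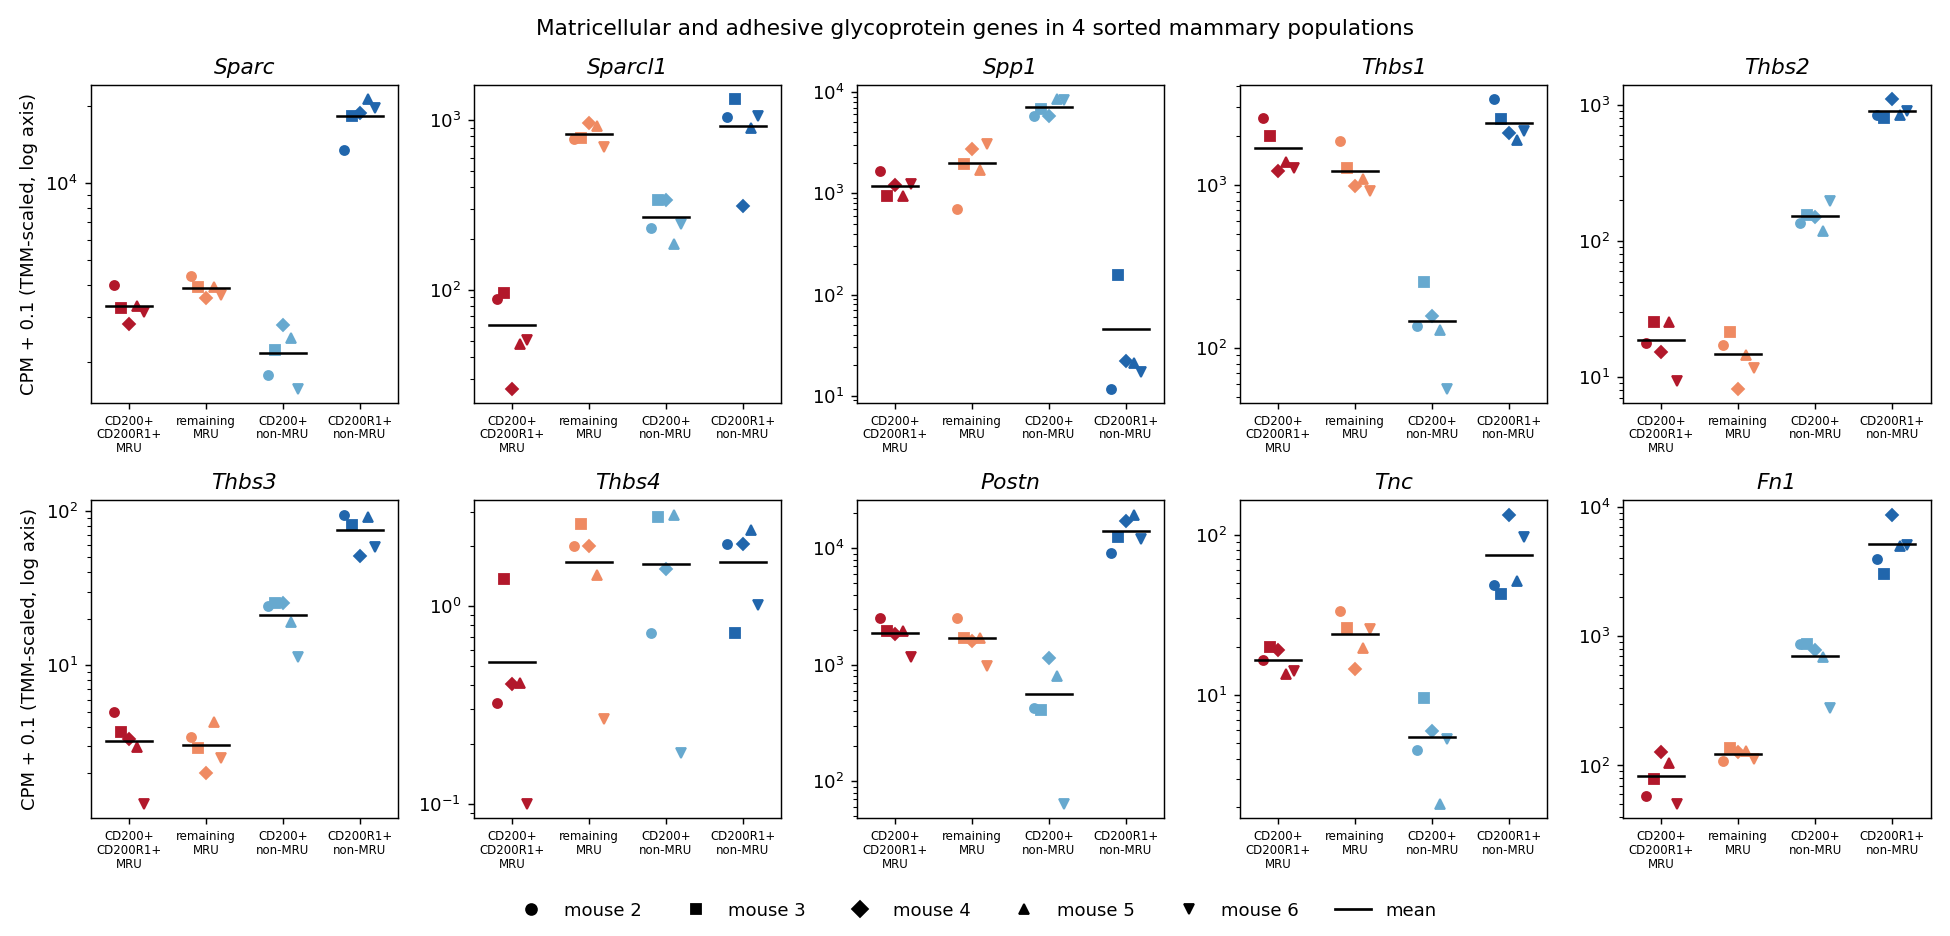
CPM of the 10 genes in each library (log axes, with 0.1 added to each value for drawing), by sorted population, with a symbol for each mouse and a bar at the mean of 5 libraries. Sparcl1 is lowest in CD200+CD200R1+ MRU, Spp1 is lowest in CD200R1+ non-MRU, whose mouse 3 library stands apart at 155 CPM, and Sparc, Postn, Tnc, Thbs2, Thbs3 and Fn1 are highest in CD200R1+ non-MRU.

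Thbs1 and Thbs2 encode the thrombospondins that form trimers and bind CD36 and CD47, and thrombospondin-1 is also known to activate latent TGF-beta. Thbs1 (ENSMUSG00000040152, chromosome 2, 118111876 to 118127133, plus strand) stood at 2570, 1980, 1210, 1380 and 1260 CPM in the CD200+CD200R1+ MRU of mice 2 to 6 and at 1840, 1270, 982, 1090 and 916 CPM in the remaining MRU. It stood at 136, 255, 156, 129 and 56.4 CPM in the CD200+ non-MRU and at 3330, 2520, 2070, 1890 and 2130 CPM in the CD200R1+ non-MRU. The CD200+ non-MRU were far below the other populations, and in each mouse the CD200R1+ non-MRU were highest, then came the CD200+CD200R1+ MRU, and the remaining MRU were lowest of these. Thbs1 was 11.5-fold higher in the CD200+CD200R1+ MRU than in the CD200+ non-MRU (log2 3.52, SE 0.33, adjusted p = 2.3e-08) and 16.3-fold lower in the CD200+ non-MRU than in the CD200R1+ non-MRU (log2 -4.02, SE 0.33, adjusted p = 2.5e-09). The smaller steps among the 3 high populations passed only in part. The CD200+CD200R1+ MRU did not differ past the threshold from the remaining MRU (log2 0.46, 95% interval -0.12 to 1.04, adjusted p = 0.43) or from the CD200R1+ non-MRU (log2 -0.51, SE 0.30, adjusted p = 0.17). With the mouse as a block the second of these passed (log2 -0.55, adjusted p = 0.0403). The remaining MRU were 1.96-fold lower than the CD200R1+ non-MRU (log2 -0.97, SE 0.30, adjusted p = 0.011), a call lost when libraries were scaled by their totals alone (log2 -0.59, adjusted p = 0.0938).

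Thbs2 (ENSMUSG00000023885, chromosome 17, 14665500 to 14694235, minus strand), whose promoter is shown above, had another order. It stood at 17.7, 25.2, 15, 25.3 and 9.18 CPM in the CD200+CD200R1+ MRU and at 17, 21.4, 8.09, 14.3 and 11.4 CPM in the remaining MRU. It stood at 136, 156, 151, 119 and 197 CPM in the CD200+ non-MRU and at 850, 806, 1100, 846 and 897 CPM in the CD200R1+ non-MRU. The MRU populations overlapped at the bottom, the CD200+ non-MRU formed a separate middle level and the CD200R1+ non-MRU a separate top level. Thbs2 was 48.7-fold lower in the CD200+CD200R1+ MRU than in the CD200R1+ non-MRU (log2 -5.60, SE 0.29, adjusted p = 1.3e-12) and 8.21-fold lower than in the CD200+ non-MRU (log2 -3.04, SE 0.26, adjusted p = 7e-09). The CD200+ non-MRU were 5.93-fold below the CD200R1+ non-MRU (log2 -2.57, SE 0.25, adjusted p = 2.6e-08). Between the MRU populations it did not pass (log2 0.35, 95% interval -0.13 to 0.84, adjusted p = 0.48).

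Per exon length, Thbs1 exceeded Thbs2 by a median of 92.7 times (63.1 to 167) in the CD200+CD200R1+ MRU and 92.3 times (68.7 to 140) in the remaining MRU. The same ratio was 1.19 (0.329 to 1.88) in the CD200+ non-MRU and 2.73 (2.17 to 4.52) in the CD200R1+ non-MRU. The ratio ranges of the MRU populations did not overlap those of the non-MRU populations, and the lowest ratio was that of the CD200+ non-MRU library of mouse 6, which had the least Thbs1 and the most Thbs2 of its population.

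**Figure D3:**
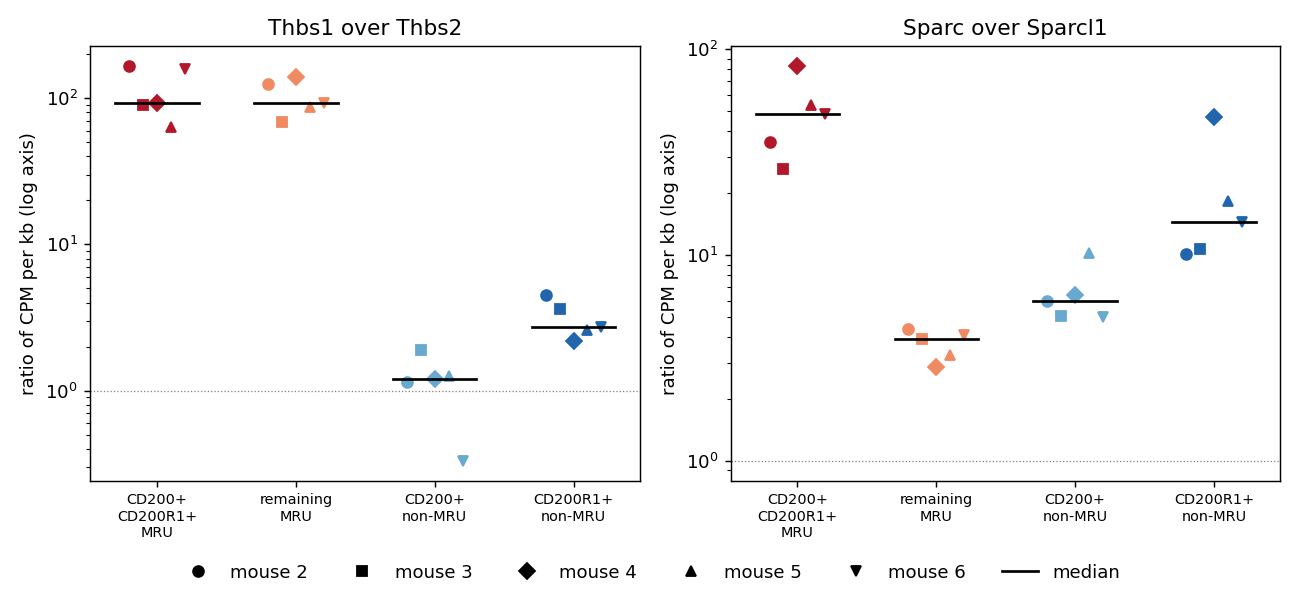
Per-length ratios of Thbs1 to Thbs2 (left) and of Sparc to Sparcl1 (right) in each library (log axes), by sorted population, with the median as a bar and a dotted line at a ratio of 1. The Thbs1 to Thbs2 medians are 92.7 and 92.3 in the MRU populations and 1.19 and 2.73 outside the MRU gate.

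Thbs3 and Thbs4 encode thrombospondins of the group that forms pentamers and lacks the domain with which thrombospondin-1 activates TGF-beta. Thbs3 (ENSMUSG00000028047, chromosome 3, 89215180 to 89226837, plus strand) ranged over 1.17 to 4.87 CPM in the CD200+CD200R1+ MRU, 1.9 to 4.22 CPM in the remaining MRU, 11.2 to 25.3 CPM in the CD200+ non-MRU and 50.5 to 94 CPM in the CD200R1+ non-MRU. It thus had the order of Thbs2 at a lower level. It was 23.7-fold lower in the CD200+CD200R1+ MRU than in the CD200R1+ non-MRU (log2 -4.57, SE 0.32, adjusted p = 1.6e-10), 6.67-fold lower than in the CD200+ non-MRU (log2 -2.74, SE 0.31, adjusted p = 3e-07) and at nearly the level of the remaining MRU (log2 0.09, 95% interval -0.53 to 0.71, adjusted p = 0.93). Thbs3 shares 318 exon bases with Mtx1 on the opposite strand, which averaged 46.2 to 60.8 CPM in the 4 populations. Whether the counting used strand is not given in the sources used here, so that some reads of the pair cannot be told apart.

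Thbs4 (ENSMUSG00000021702, chromosome 13, 92751590 to 92794818, minus strand), known from tendon and muscle, was scarce. Its counts over 5 libraries summed to 29 in the CD200+CD200R1+ MRU and 98 in the remaining MRU, with 105 counts in the CD200+ non-MRU and 77 counts in the CD200R1+ non-MRU. The CD200+CD200R1+ MRU ranged over 0 to 1.27 CPM, with 4 of 5 libraries at 4 counts or fewer, and the other populations over 0.0816 to 2.79 CPM, so that all overlapped. No difference passed at this depth, including the 3.62-fold lower level in the CD200+CD200R1+ MRU than in the remaining MRU (log2 -1.86, SE 0.80, adjusted p = 0.19), lower in all 5 mice. With the mouse as a block, Thbs4 passed as lower in the CD200+CD200R1+ MRU than in the CD200+ non-MRU (log2 -1.86, adjusted p = 0.0259, against 0.063 without the block) and than in the CD200R1+ non-MRU (log2 -2.44, adjusted p = 0.0075, against 0.065). The same comparisons also passed without the CD200+CD200R1+ MRU library of mouse 3 (log2 -2.78 and -2.80, adjusted p = 0.0139 and 0.0137) and without the CD200+ non-MRU library of mouse 6 (adjusted p = 0.0278 and 0.0468), and the first of them in DESeq2 (adjusted p = 0.0465). That mouse 6 library is not part of the second comparison, whose log2 value was then -1.81, against -1.86. In 21 of 25 alternatives for the first comparison and 22 of 25 for the second, Thbs4 stayed uncalled.

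Postn and Tnc encode periostin and tenascin-C, which bind each other in the matrix. Postn (ENSMUSG00000027750, chromosome 3, 54361109 to 54391037, plus strand) stood at 2520, 1960, 1850, 1960 and 1170 CPM in the CD200+CD200R1+ MRU of mice 2 to 6 and at 2500, 1700, 1590, 1710 and 985 CPM in the remaining MRU. It stood at 426, 408, 1140, 802 and 64 CPM in the CD200+ non-MRU and at 9130, 12600, 17300, 19400 and 12100 CPM in the CD200R1+ non-MRU. The CD200R1+ non-MRU were above all other libraries, and the MRU populations overlapped nearly completely. The CD200+ non-MRU of mouse 6 was lowest of all 20 libraries, while that of mouse 4 reached into the range of the remaining MRU. Postn was 24.9-fold lower in the CD200+ non-MRU than in the CD200R1+ non-MRU (log2 -4.64, SE 0.50, adjusted p = 1.2e-07). It was 7.46-fold lower in the CD200+CD200R1+ MRU than in the CD200R1+ non-MRU (log2 -2.90, SE 0.46, adjusted p = 2.2e-05) and 3.33-fold higher than in the CD200+ non-MRU (log2 1.74, SE 0.44, adjusted p = 0.0028). Between the MRU populations it did not pass (log2 0.16, SE 0.43, adjusted p = 0.9).

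Tnc (ENSMUSG00000028364, chromosome 4, 63959785 to 64047015, minus strand) was, like Postn, highest in the CD200R1+ non-MRU and lowest in the CD200+ non-MRU, at a much lower per-length level, with 2.13, 3.06, 0.694 and 9.57 CPM per kb on average in the CD200+CD200R1+ MRU, the remaining MRU, the CD200+ non-MRU and the CD200R1+ non-MRU. It ranged over 13.5 to 19.8 CPM in the CD200+CD200R1+ MRU and 14.5 to 33.3 CPM in the remaining MRU, against 1.99 to 9.48 CPM in the CD200+ non-MRU and 42.7 to 133 CPM in the CD200R1+ non-MRU. The MRU populations overlapped and lay between the other populations without touching either. Tnc was 3.05-fold higher in the CD200+CD200R1+ MRU than in the CD200+ non-MRU (log2 1.61, SE 0.35, adjusted p = 0.00066), 4.5-fold lower than in the CD200R1+ non-MRU (log2 -2.17, SE 0.34, adjusted p = 1.7e-05) and did not pass against the remaining MRU (log2 -0.52, 95% interval -1.17 to 0.12, adjusted p = 0.42). Its highest library, at 133 CPM, was the CD200R1+ non-MRU of mouse 4. Without it Tnc was lower in the CD200+CD200R1+ MRU than in the CD200R1+ non-MRU by log2 -1.85 (adjusted p = 6.39e-05).

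Fn1 (ENSMUSG00000026193, chromosome 1, 71585520 to 71653200, minus strand), the adhesive member of the set, stood at 58.2, 78.7, 126, 104 and 50.4 CPM in the CD200+CD200R1+ MRU of mice 2 to 6 and at 109, 136, 127, 129 and 112 CPM in the remaining MRU. It stood at 873, 869, 777, 687 and 276 CPM in the CD200+ non-MRU and at 3940, 3040, 8660, 4980 and 5080 CPM in the CD200R1+ non-MRU. The populations outside the MRU gate each formed a level of their own, and in all 5 mice the CD200+CD200R1+ MRU were the lowest. Fn1 was 61.7-fold lower in the CD200+CD200R1+ MRU than in the CD200R1+ non-MRU (log2 -5.95, SE 0.36, adjusted p = 1.5e-11), the largest such fold among the 10 genes, and 8.36-fold lower than in the CD200+ non-MRU (log2 -3.06, SE 0.32, adjusted p = 1e-07). The CD200+ non-MRU were 7.38-fold below the CD200R1+ non-MRU (log2 -2.88, SE 0.31, adjusted p = 1.2e-07). Between the MRU populations Fn1 did not pass (log2 -0.56, 95% interval -1.13 to 0.02, adjusted p = 0.31). The CD200R1+ non-MRU library of mouse 4 was again the highest, and without it Fn1 was lower in the CD200+CD200R1+ MRU than in the CD200R1+ non-MRU by log2 -5.68 (adjusted p = 1.73e-11).

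Fibroblast markers other than Pi16 moved with the genes that peaked in the CD200R1+ non-MRU. Pi16, also on the fibroblast list, averaged 376 CPM in the CD200+ non-MRU and 81.3 CPM in the CD200R1+ non-MRU. The 10 markers on that list, all present in the table, summed to 1000 to 1610 CPM in the CD200+CD200R1+ MRU, 713 to 1320 CPM in the remaining MRU, 7270 to 17800 CPM in the CD200+ non-MRU and 70700 to 96200 CPM in the CD200R1+ non-MRU. Like these sums, Thbs2, Thbs3 and Fn1 were higher on average in the CD200+ non-MRU than in both MRU populations, whereas Sparc, Postn, Tnc and Thbs1 were lower there than in either. Within the MRU gate the mean fibroblast sum was 1290 CPM in the CD200+CD200R1+ MRU and 1070 CPM in the remaining MRU, while Fn1 ran the other way, with 83.3 CPM in the CD200+CD200R1+ MRU and 123 CPM in the remaining MRU. The 8 basal markers summed to 13000 to 23400 CPM in the CD200+CD200R1+ MRU and 11000 to 17600 CPM in the remaining MRU, against 308 to 982 CPM in the CD200+ non-MRU and 78.2 to 198 CPM in the CD200R1+ non-MRU. The CD200+ non-MRU library of mouse 6 had the lowest fibroblast sum of its population, 7270 CPM against 14800 to 17800 CPM in the others, and the lowest Postn, Thbs1, Thbs3, Thbs4, Sparc and Fn1, but the highest Thbs2. The part of these cell types in the results was not tested.

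**Figure D4:**
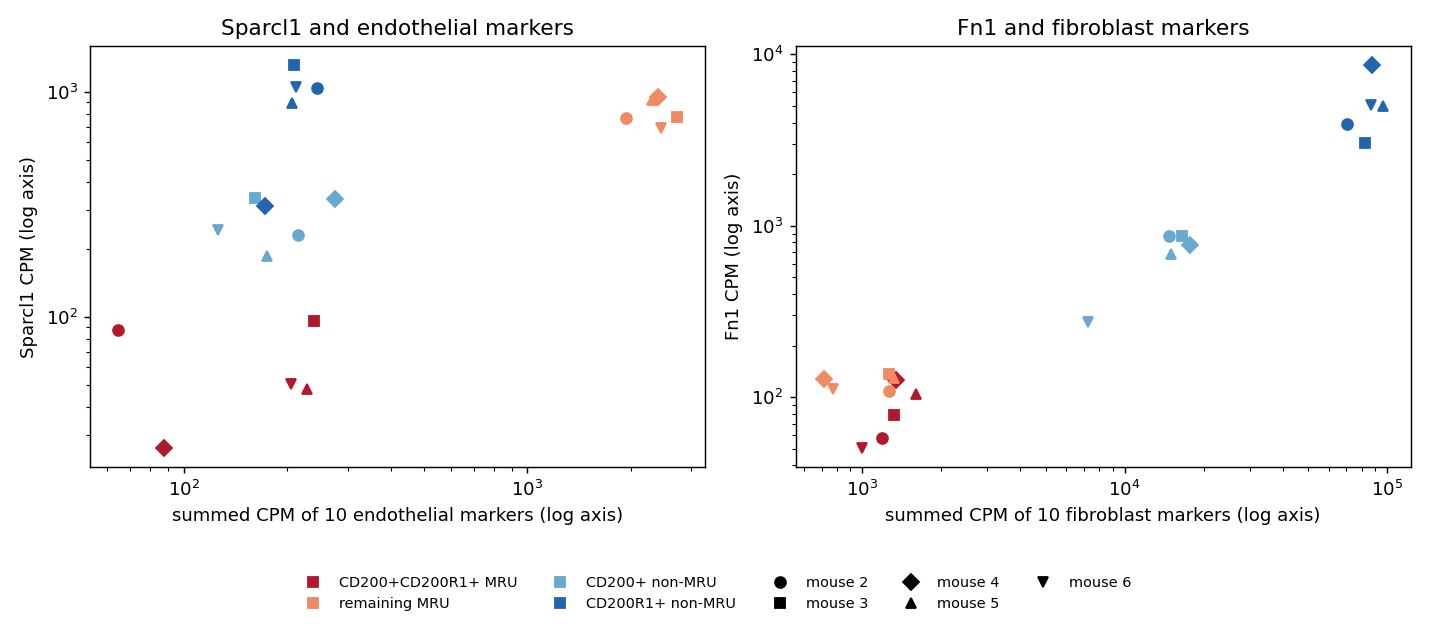
Sparcl1 CPM against the summed CPM of 10 endothelial markers (left) and Fn1 CPM against the summed CPM of 10 fibroblast markers (right), 1 point per library on log axes, with colours for the populations and symbols for the mice. On the left, remaining MRU (sums of 1940 to 2730 CPM) and CD200R1+ non-MRU (172 to 244 CPM) overlap in Sparcl1 level but not in sum, and on the right the CD200+ non-MRU lie between the MRU at lower left and the CD200R1+ non-MRU at upper right.

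Spp1 (ENSMUSG00000029304, chromosome 5, 104435118 to 104441050, plus strand) encodes osteopontin, a secreted phosphoprotein that is also a milk constituent, and ran opposite to most of the set. It stood at 1660, 939, 1210, 934 and 1220 CPM in the CD200+CD200R1+ MRU of mice 2 to 6 and at 697, 1930, 2710, 1690 and 3030 CPM in the remaining MRU. It stood at 5770, 6850, 5840, 8440 and 8410 CPM in the CD200+ non-MRU and at 11.7, 155, 21.9, 20.8 and 17 CPM in the CD200R1+ non-MRU. The CD200+ non-MRU were above every other library, the CD200R1+ non-MRU below every other, and the MRU populations overlapped between them, with the remaining MRU the more variable. Spp1 was 156-fold higher in the CD200+ non-MRU than in the CD200R1+ non-MRU (log2 7.28, SE 0.68, adjusted p = 1.3e-08). It was 5.92-fold lower in the CD200+CD200R1+ MRU than in the CD200+ non-MRU (log2 -2.57, SE 0.54, adjusted p = 0.00054) and 26.3-fold higher than in the CD200R1+ non-MRU (log2 4.72, SE 0.60, adjusted p = 1.1e-06). Between the MRU populations it did not pass (log2 -0.75, 95% interval -1.76 to 0.25, adjusted p = 0.47), and it was lower in the CD200+CD200R1+ MRU of 4 of 5 mice.

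The size of the Spp1 difference from the CD200R1+ non-MRU rested on the library of mouse 3, which alone reached 155 CPM. Without it the CD200R1+ non-MRU averaged 17.8 ± 4.61 CPM (SD, n = 4), and the folds became 66.8 for the CD200+CD200R1+ MRU, 113 for the remaining MRU and 395 for the CD200+ non-MRU. The 10 luminal epithelial markers summed to 2650 to 5130 CPM in the CD200+CD200R1+ MRU, 2650 to 5200 CPM in the remaining MRU, 13000 to 22500 CPM in the CD200+ non-MRU and 44.2 to 172 CPM in the CD200R1+ non-MRU. The order of the populations in these sums was close to that of Spp1, and the part of luminal cells was not tested. In the CD200R1+ non-MRU of mouse 3 the luminal sum was 113 CPM, below the 172 CPM of mouse 2, whose Spp1 was the lowest of the 5 libraries. Esr1 averaged 47.1 CPM of the mean luminal sum of 96.9 CPM in that population, beside Krt8 at 5.93 CPM (0.907 to 19.9 CPM). The luminal sum therefore says little about luminal cells in single libraries of that population. Unlike the other luminal markers, Esr1 was highest there. The mouse 3 library had the highest macrophage sum of that population, 4110 CPM, and the highest basal sum, 198 CPM. The macrophage sums of mice 2 and 5 were 3510 and 3340 CPM, with Spp1 at 11.7 and 20.8 CPM, and the basal sum of mouse 6 was 172 CPM, with Spp1 at 17 CPM. Acta2 at 75.5 CPM and Mylk at 38.1 CPM made up most of the mean basal sum of 125 CPM in that population. The part of these cell types in the mouse 3 value was not tested. Gm42793, a gene model on the same strand that shares 309 exon bases with Spp1, averaged at most 33.2 CPM.

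Inside the MRU gate, the double-positive cells were set against the rest. Of the 10 genes only Sparcl1 passed, as lower, where 8.26% of all tested genes passed, 1.62% as higher and 6.64% as lower. It was also the only one of the 10 whose libraries did not overlap, against 12.3% of all genes. The median log2 difference of the 10 genes was -0.38, beside 0.02 for all genes tested. Sparc, Fn1 and Thbs4 were lower and Thbs1 and Postn higher in the CD200+CD200R1+ MRU of all 5 mice without passing.

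A list of 40 related matrix glycoproteins, 36 of them tested, held 0 higher and 8 lower genes in the CD200+CD200R1+ MRU, with a median log2 difference of -0.03. Fbln5, a fibulin of elastic fibres, averaged 19.8 ± 4.07 CPM against 365 ± 46.5 CPM in the remaining MRU, 18.5-fold lower (log2 SE 0.28, adjusted p = 6.2e-09). The other 3 with the smallest adjusted p were Vwf, the von Willebrand factor of endothelial cells, 10.9-fold lower, Egfl7, a protein secreted by endothelial cells, 13.6-fold lower, and Nid2, a basement membrane linker, 2.44-fold lower (adjusted p = 1.4e-05, 6.5e-05 and 0.00082). Of 20 receptors for the set, all tested, 2 were higher and 3 lower. The thrombospondin receptor Cd36 averaged 118 ± 22.2 CPM against 1350 ± 98.9 CPM in the remaining MRU, 11.5-fold lower (adjusted p = 1.2e-08). Cd93, an endothelial surface protein, was 11.1-fold lower and Cd47, another thrombospondin receptor, 1.43-fold lower, while Lrp1, which clears thrombospondins from the cell surface, was 1.58-fold higher (adjusted p = 1.9e-06, 0.0039 and 0.0023). The endothelial marker sum and Fabp4, given beside Sparcl1, differed in the same direction as Cd36 and Cd93. The 10 macrophage markers differed in the direction of Lrp1, with sums of 2570 to 4540 CPM in the CD200+CD200R1+ MRU and 1420 to 2520 CPM in the remaining MRU. The part of these cell types was not tested.

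**Figure D5:**
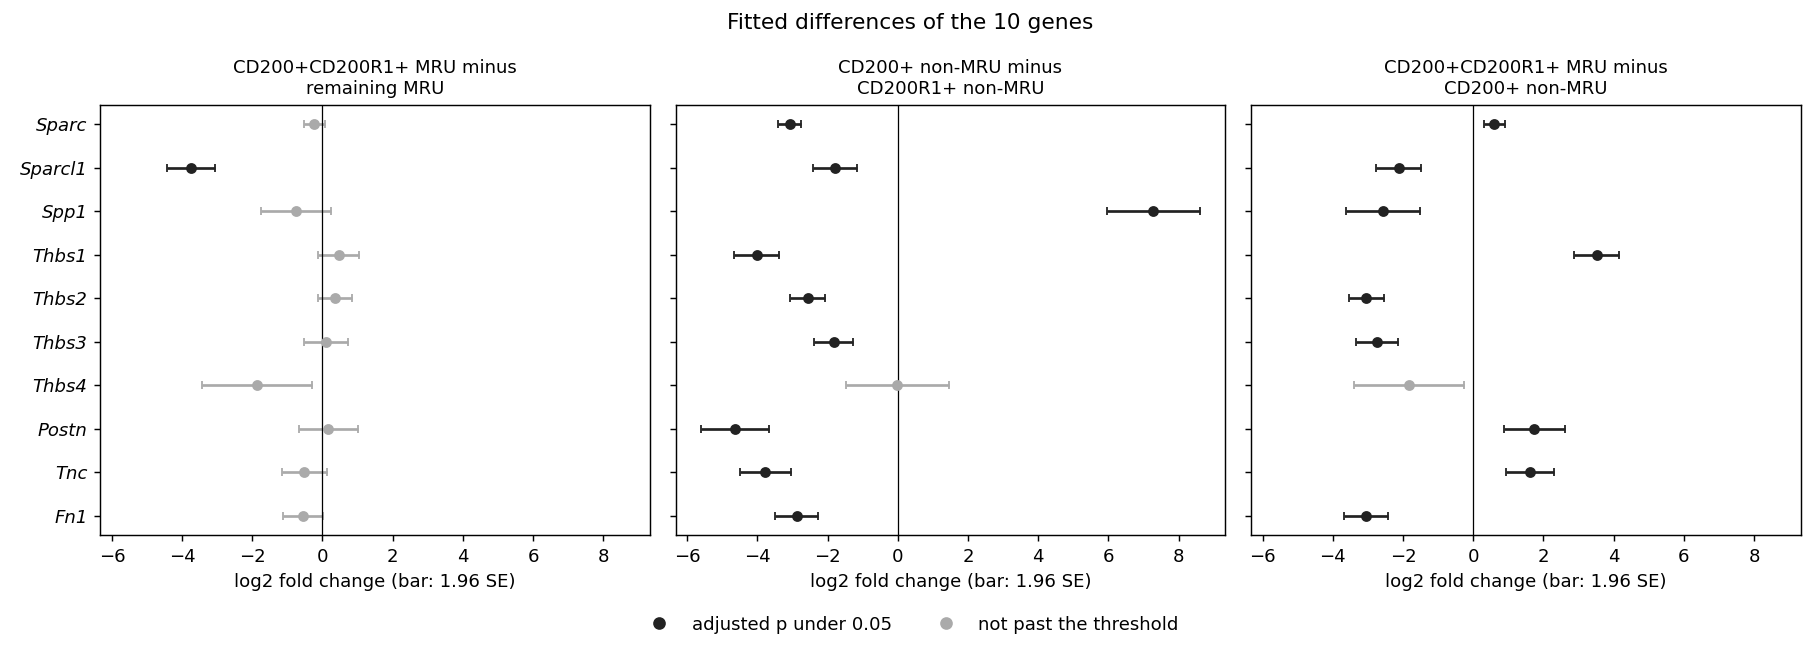
Log2 difference of each of the 10 genes in 3 comparisons, first-named population minus the second, with bars of 1.96 SE, black where the adjusted p was under 0.05 and grey elsewhere. Within the MRU gate only Sparcl1 is black, and between the non-MRU populations Spp1 is the only black point on the positive side.

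Outside the MRU gate, the CD200+ non-MRU were compared with the CD200R1+ non-MRU. Sparc, Sparcl1, Thbs1, Thbs2, Thbs3, Postn, Tnc and Fn1 were lower in the CD200+ non-MRU by 3.47-fold (Sparcl1) to 24.9-fold (Postn), and Spp1 was higher. These 9 of 10 genes compare with 52.5% of all genes called in this comparison, 23.8% as higher and 28.6% as lower, and 8 of the 10 did not overlap, against 33.1% of all genes. The median log2 difference was -2.72 for the 10 genes and -0.06 for all genes. With library totals as the only scaling, the genes called over the whole table divided into 6822 higher and 3040 lower, against 4107 and 4936, and the 10 genes kept their calls and directions apart from the uncalled Thbs4.

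In the same comparison, 3 of the 36 related genes were higher and 19 lower. Nid2 was 12.3-fold lower, Fbln7, a fibulin, 12.4-fold lower, Efemp2, the fibulin that brings lysyl oxidase to elastic fibres, 4.61-fold lower, and Mfap2, a microfibril component, 7.86-fold lower (adjusted p = 2e-10, 1.6e-09, 2e-09 and 2.2e-09). Of the 20 receptors, 3 were higher and 12 lower. Lrp1 was 6.09-fold lower, the fibronectin receptor chain Itga5 8.31-fold lower and Cd44, a receptor of osteopontin, 4.48-fold lower (adjusted p = 5.5e-12, 9.8e-10 and 1.6e-09). The epithelial integrin chain Itgb6 was higher, at 7.91 ± 2.75 CPM in the CD200+ non-MRU against 0.182 ± 0.133 CPM in the CD200R1+ non-MRU (adjusted p = 2.7e-09).

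The CD200+CD200R1+ MRU differed from the CD200+ non-MRU in both directions. Sparc, Thbs1, Postn and Tnc were higher and Sparcl1, Spp1, Thbs2, Thbs3 and Fn1 lower. These 9 of 10 genes also did not overlap, beside 48.5% of all genes called, 23.9% as higher and 24.6% as lower, and 36.6% not overlapping. The related genes held 11 higher and 18 lower of 36, and the receptors 13 higher and 3 lower of 20. Ctgf, a matricellular protein of the CCN family, averaged 1220 ± 287 CPM against 56.5 ± 23.6 CPM in the CD200+ non-MRU, 21.5-fold higher (adjusted p = 8.1e-10). Mfap5, a microfibril component, was 19.9-fold lower, Fbln1 8.32-fold lower and Fbln5 7.69-fold lower (adjusted p = 2.5e-09, 3.5e-09 and 1.9e-08). The 4 receptor genes with the smallest adjusted p were all higher, namely the gabapentin-binding channel subunit and thrombospondin receptor Cacna2d1 by 6.78-fold, the tenascin and osteopontin receptor chain Itga9 by 7.92-fold, the scavenger receptor of SPARC Stab1 by 15-fold and the integrin chain Itgb8 by 5.04-fold (adjusted p = 6e-09, 2.2e-08, 8.5e-08 and 1.2e-07). The 10 macrophage markers, a cell type that also uses Stab1, summed to 2570 to 4540 CPM in the CD200+CD200R1+ MRU and 417 to 589 CPM in the CD200+ non-MRU, and their part was not tested.

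Against the CD200R1+ non-MRU, the CD200+CD200R1+ MRU were lower in Sparc, Sparcl1, Thbs2, Thbs3, Postn, Tnc and Fn1 and higher in Spp1. The 8 genes called, all without overlap, stand beside 46.8% of all genes called, 22.8% as higher and 24% as lower, and 31.3% not overlapping. The median log2 difference was -2.69 for the 10 genes and 0.01 for all genes. The related genes were lower for the most part, 25 of 36 against 6 higher, with Mfap2 38.7-fold, the basement membrane linker Nid1 23-fold, Mfap5 59.1-fold and the follistatin-like Fstl1 7.43-fold lower (adjusted p = 1.3e-12, 2.1e-12, 2.2e-11 and 5e-11). The receptors divided more evenly, with 7 higher and 6 lower of 20. Lrp1 was 4.55-fold, Cd47 3.09-fold and Itga5 10.7-fold lower, and Itgb6 was higher, at 7 ± 2.12 CPM against 0.182 ± 0.133 CPM in the CD200R1+ non-MRU (adjusted p = 2.9e-11, 1.1e-10, 1.4e-10 and 3.3e-09). With library totals as the only scaling the genes called over the whole table divided into 6943 higher and 2514 lower, against 3930 and 4144.

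The remaining MRU were set against the same non-MRU populations. Against the CD200+ non-MRU, Sparc (1.78-fold), Sparcl1 (3.08-fold), Thbs1 (8.32-fold), Postn (2.99-fold) and Tnc (4.39-fold) were higher and Spp1 (3.51-fold), Thbs2 (10.5-fold), Thbs3 (7.11-fold) and Fn1 (5.68-fold) lower, with adjusted p from 2.4e-09 for Thbs2 to 0.008 for Spp1. These 9 of 10 genes compare with 44.1% of all genes called, 24.1% as higher and 20.1% as lower, and 8 did not overlap, against 36.8% of all genes. Sparcl1 was thus higher than the CD200+ non-MRU level in the remaining MRU and lower than it in the CD200+CD200R1+ MRU. The related genes held 14 higher and 16 lower of 36, and the receptors 11 higher and 4 lower of 20. Mfap5 was 23.7-fold, Fbln1 8.93-fold and Ecm1 5.08-fold lower and Ctgf 14.9-fold higher (adjusted p = 1.8e-09, 3e-09, 4e-08 and 4.1e-09). Cd36 was 39-fold, Cd93 34.7-fold, Itga9 6.97-fold and Cacna2d1 4.53-fold higher (adjusted p = 5.2e-11, 5e-09, 5.5e-08 and 1.3e-07).

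Against the CD200R1+ non-MRU, the remaining MRU were lower in Sparc (4.74-fold), Thbs1 (1.96-fold), Thbs2 (62.2-fold), Thbs3 (25.3-fold), Postn (8.32-fold), Tnc (3.13-fold) and Fn1 (41.9-fold) and higher in Spp1 (44.4-fold). The adjusted p ran from 1.1e-12 for Thbs2 to 0.011 for Thbs1. The 8 genes called, all without overlap, stand beside 44.1% of all genes called, 22.4% as higher and 21.6% as lower, and 31.9% not overlapping. The related genes held 9 higher and 23 lower of 36, and the receptors 6 higher and 7 lower of 20. Mfap2 was 41.4-fold, Nid1 16-fold, Mfap5 70.4-fold and Efemp2 7.93-fold lower (adjusted p = 1.4e-12, 1e-11, 1.7e-11 and 2.4e-11). Lrp1 was 7.17-fold, Itga5 7.98-fold and Cd44 4.47-fold lower and Cd36 9.7-fold higher (adjusted p = 1.2e-12, 9.6e-10, 1.3e-09 and 7.2e-10). With library totals as the only scaling the genes called over the whole table divided into 6639 higher and 2258 lower, against 3867 and 3728. The comparisons that name the same population share its libraries and are not independent of each other.

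The genes nearest in pattern were found by the root mean square (RMS) difference of log2 CPM, each gene centred on its own mean over the 20 libraries, among 9051 genes with a mean of at least 10 CPM. Sparc was nearest to Snhg18 (RMS difference 0.21), a non-coding host gene, to the collagen lysyl hydroxylase Plod1 (0.28) and to the growth factor Hgf (0.29), on a pattern that itself spread by 1.19. Thbs1 was nearest to Col12a1 (0.45), Samd4 (0.50) and the basement membrane collagen chain Col4a2 (0.52). Thbs2 was nearest to Col1a2 (0.48), Tmem119 (0.48) and the PDGF receptor Pdgfra (0.52), Thbs3 to Mxra8 (0.38), Lpar1 (0.42) and C1ra (0.45), and Fn1 to the laminin chain Lama2 (0.39), Abca8a (0.42) and Pdgfra (0.44). Col1a2 and Pdgfra are also on the fibroblast marker list. Postn was nearest to Cd109 (0.69), Itga2b (0.72) and Pla2g7 (0.74), on a pattern that spread by 1.98. Tnc was nearest to Lhfpl2 (0.55), the perlecan gene Hspg2 (0.56) and Frmd4a (0.56), on a pattern that spread by 1.45. Sparcl1 was nearest to Ldb2 (0.59), the cytokine Il6 (0.63) and the Wnt receptor Fzd4 (0.65), and Spp1 to Tspan8 (0.73), Wfdc2 (0.76) and the milk fat globule gene Btn1a1 (0.83), on a pattern that spread by 3.07. All of these measures rest on the same 20 libraries and are given as a description.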

How the data were processed

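RNA was measured in 20 libraries of 1000 sorted cells each, made with a SMART-Seq V4 kit from polyA RNA, per the labels' protocols. The authors deposited whole-number raw counts for each Ensembl gene in each library, which the file headers do not call normalized. Per the submitters' processing notes, the tools were STAR 2.4.2a, cutadapt, HTSeq and DESeq2 and the build GRCm38. Their parameters, the strand setting and the annotation release are not given in the sources used. A further 20 columns of normalized values per sample and the authors' own comparisons were not used. No line of the table lacked a gene.

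Genes were filtered with filterByExpr and tested with edgeR 4.0.16 in R 4.3.3, in 1 quasi-likelihood fit of the 20 libraries with population as the term and TMM scaling. P-values were adjusted by Benjamini-Hochberg over 17236 genes (threshold 0.05). Levels are given in TMM-scaled CPM, as mean ± SD over 5 libraries. SE is worked back from the test, as the absolute log2 difference divided by the square root of its F statistic. The 95% intervals span 1.96 SE to either side and are not adjusted for the number of genes. Gene coordinates and exon lengths came from GENCODE M21 on GRCm38. No molecular identifiers are named, so the worth of 3 counts covers counting error only. The fit was tested on simulated counts with known changes. Between the MRU populations it recovered 54% of changes of log2 1 and 84% of those of log2 2, with 7 false calls. Between the non-MRU populations it recovered 44% and 74%, with 8 false calls. Each size of change was given to 100 genes, far fewer than were called in the data. With fewer changed genes the adjusted threshold is harder to reach, so the shares recovered need not hold for the data. In the simulated setting a change of log2 1 was often missed, and such a change could also be missed in the data.

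Replicate libraries were compared in 40 pairs for repeated deposits, with a chi-square of 12 to 83.2 per gene, so each counted once. Same-numbered samples come from the same mouse, per the labels. The deviations of such samples from their population means correlated with r of -0.00463 to 0.24 (30 pairs, median 0.0668), against a median of -0.0253 for 120 pairs of different mice. The mouse was therefore also used as a block. Other alternatives were DESeq2 1.42.0, library totals alone, median-of-ratios factors, no filter on low counts, the 10 libraries of a comparison alone and each library left out in turn.

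The 10 genes, the lists of 40 related genes and 20 receptors, and the marker lists were chosen with earlier results of these data known. Named from the lists are the 4 genes with the smallest adjusted p in each comparison, and, for pattern, the 3 nearest genes. Marker lists covered fibroblasts, endothelial cells, pericytes, macrophages, adipocytes, lymphocytes, Schwann cells and basal and luminal epithelium. Lymphocyte sums averaged 337 CPM in CD200+CD200R1+ MRU and 222 CPM in remaining MRU, against 1800 CPM in CD200+ non-MRU and 209 CPM in CD200R1+ non-MRU, and Schwann cell sums averaged 34 to 57.5 CPM.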

Additional observations from a re-analysis of the deposited data

Results flagged for a closer look

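In 2 of 40 sets of 5 libraries, 10 genes in 4 populations, a single library stood far from the others by Dixon's criterion, which chance meets in about 1 set in 20. Spp1 in the CD200R1+ non-MRU of mouse 3 reached 155 CPM, against 11.7 to 21.9 CPM in the other 4 libraries. Thbs4 in the CD200+CD200R1+ MRU of mouse 3 reached 1.27 CPM, or 18 counts, against 0 to 0.307 CPM in the other 4 libraries, which averaged 0.208 ± 0.144 CPM (SD, n = 4).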

How the results depend on the processing

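Of the values of the 10 genes in 6 comparisons under the alternatives, 1522 kept their direction and their side of the threshold, 8 passed it newly, 1 no longer passed and 27 changed sign, and no called value changed sign. Among the 26 alternative fits, 20 left out 1 library. For each comparison many of these libraries belonged to populations outside it, where the log2 value could hardly move, so the count of kept values overstates the stability. The values that changed sign were those of Thbs4, Thbs3 and Sparcl1. Thbs4 in the CD200+ non-MRU minus the CD200R1+ non-MRU was 0.02 with DESeq2 and with median-of-ratios factors, 0.39 with library totals alone, 0.00 without the filter and 0.05 in the 10 libraries alone, against -0.02, and -0.35 to 0.28 with a library left out. Thbs4 in the remaining MRU minus the CD200+ non-MRU was -0.02 with library totals alone and 0.00 in the 10 libraries alone, against 0.02, and -0.24 to 0.39 with a library left out. Thbs4 in the remaining MRU minus the CD200R1+ non-MRU was -0.40 with the mouse as a block, against 0.00, and -0.20 to 0.33 with a library left out. Thbs3 within the MRU was -0.12 to 0.31 with a library left out. Sparcl1 in the remaining MRU minus the CD200R1+ non-MRU was 0.23 with library totals alone. The cause was not tested. All values of the genes named from the lists in the first 3 comparisons described, 624, kept direction and call. These genes were picked for the smallest adjusted p, so a kept call was likely in advance and says little about the lists.

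The count of all genes higher within the MRU, 280, was 559 with DESeq2, 914 in the 10 libraries alone, 429 with the mouse as a block and 153 to 381 with a library left out. Leaving out the CD200+CD200R1+ MRU library of mouse 4 gave 169 and that of mouse 5 gave 153, and leaving out the remaining MRU library of mouse 3 gave 171 and that of mouse 4 gave 164. With library totals alone, the genes higher and lower numbered 6943 and 2514 for the CD200+CD200R1+ MRU, 6639 and 2258 for the remaining MRU and 6822 and 3040 for the CD200+ non-MRU, each against the CD200R1+ non-MRU. The median of all genes was then 0.43, 0.41 and 0.37 in that order, and 0.01, 0.02 and -0.06 with TMM. Apart from the values beside Thbs1 and Thbs4, the block on the mouse changed no call of the 10 genes. Depth limits Thbs4, with 29 to 105 counts per population.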
